A study of Homo sapiens with 4 samples.

Results

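The genes examined are 10 genes of the contractile actin cytoskeleton, *TAGLN*, *ACTA2*, *CNN1*, *CNN2*, *MYL9*, *TPM1*, *TPM2*, *TPM4*, *CALD1* and *MYH9*, out of 63856 genes in the count table. They were chosen by name, found by Ensembl identifier in the counts and by symbol in the table of normalized values, and all 10 passed edgeR's filter on low counts. The libraries come from MCF10A, an immortalized and non-tumorigenic cell line of human breast epithelium. All 4 were grown in the same medium with horse serum, insulin, hydrocortisone, EGF and cholera toxin. WT cells (2 libraries) carried no vector, and HSF1-pLVX cells (2 libraries) had been transduced with a lentivirus holding the HSF1 coding sequence in pLVX-Puro and selected with puromycin. The sources used here do not say that a replicate number marks a shared culture. RNA-seq of empty-vector cells was not analysed here, so that HSF1 itself, the vector and the selection cannot be told apart.

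Actin filaments in stress fibres are decorated by tropomyosins, which decide which other proteins may bind, and are pulled on by non-muscle myosin II, a motor of heavy chains and light chains. Transgelin and the calponins bind and bundle these filaments, and caldesmon holds back the myosin motor. In the breast these proteins are best known from the myoepithelial cell, which contracts to expel milk, and several of their genes are classical targets of serum response factor (SRF) with its actin-regulated cofactors of the MRTF family.

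The libraries held between 18688109 and 24184285 counts. Levels are given in CPM, per-million counts after TMM scaling of the library sizes. A log2 fold change is that of HSF1-pLVX over WT, and an adjusted p is corrected by the Benjamini-Hochberg method over all tested genes. *HSF1* stood at 200.4 and 189.2 CPM in the WT libraries and at 982.4 and 998.6 in the HSF1-pLVX libraries, a log2 fold change of 2.35 (standard error 0.0999, adjusted p = 1.14e-10, quasi-likelihood test of edgeR), in the direction of the labels. Markers of mammary epithelium were present in both groups, with all 10 listed markers tested and sums of 21277 and 20705 CPM in WT and of 10788 and 11376 CPM in HSF1-pLVX cells. Of these markers 7 were called lower, among them *KRT14* with a log2 fold change of -3.55, and 2 higher, *KRT5* and *TP63*, with 1.12 and 3.48. Over all tested genes 33.2% were called lower and 32.7% higher at an adjusted p of 0.05. Of 10 smooth muscle and pericyte markers, *MYH11* and *MYOCD* had 0 counts in every library and *DES* had 1 count in all, while the list summed to 332.6 and 336.5 CPM in WT and to 90.7 and 79.1 CPM in HSF1-pLVX cells. *MCAM* made up most of that sum, with 306.3 CPM on average in WT and 51.96 in HSF1-pLVX cells. Of the 4 tested genes of that list *MCAM* and *SYNPO2* were called lower, *CSPG4* was called higher (log2 fold change 0.72), and *NOTCH3* was not called (0.25). Of 10 fibroblast markers only *COL1A1*, *DCN* and *FAP* passed the filter, and the list summed to 199.3 and 227.2 CPM in WT and to 59.9 and 48.9 CPM in HSF1-pLVX cells, most of it *FAP* with means of 203.9 and 39.9 CPM. Of these 3 genes *FAP* was called lower and *DCN* higher, the latter with 1 and 3 counts in WT and 94 and 87 counts in HSF1-pLVX libraries. *MYH11*, *MYOCD* and *DES* were thus at or near 0 in all libraries, unlike *MCAM* and *NOTCH3* of the same list. The part of the other marker differences in the results below was not tested. In bulk RNA, fewer cells of a type and less RNA per cell cannot be told apart.

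In HSF1-pLVX cells 7 of the 10 genes were lower, 1 was higher and 2 were not called at an adjusted p of 0.05 (edgeR's quasi-likelihood test, HSF1-pLVX against WT). Across all 15830 tested genes 65.9% were called, 33.2% lower and 32.7% higher. The libraries of the groups did not overlap for 8 of the 10 genes in the lower direction, where this was so for 41.0% of all tested genes. Among the 1956 genes with a mean of 100 CPM or more, a level chosen after the values were seen, 46.4% were called lower and 33.9% higher. Called and more than 2-fold lower were 5 of the 10 genes and 14.0% of all tested genes. Over the 10 genes the median log2 fold change was -0.88, against 0.02 over all tested genes and -0.14 over the abundant ones. The genes did not move as a block. *TAGLN*, *MYL9* and *TPM1* had log2 fold changes between -5.08 and -3.18, *CNN1* was lower on very few counts, *TPM4*, *MYH9* and *CALD1* lay between -1.07 and -0.63, *CNN2* and *ACTA2* differed by less than the test could call, and *TPM2* rose.

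**Figure D1:**
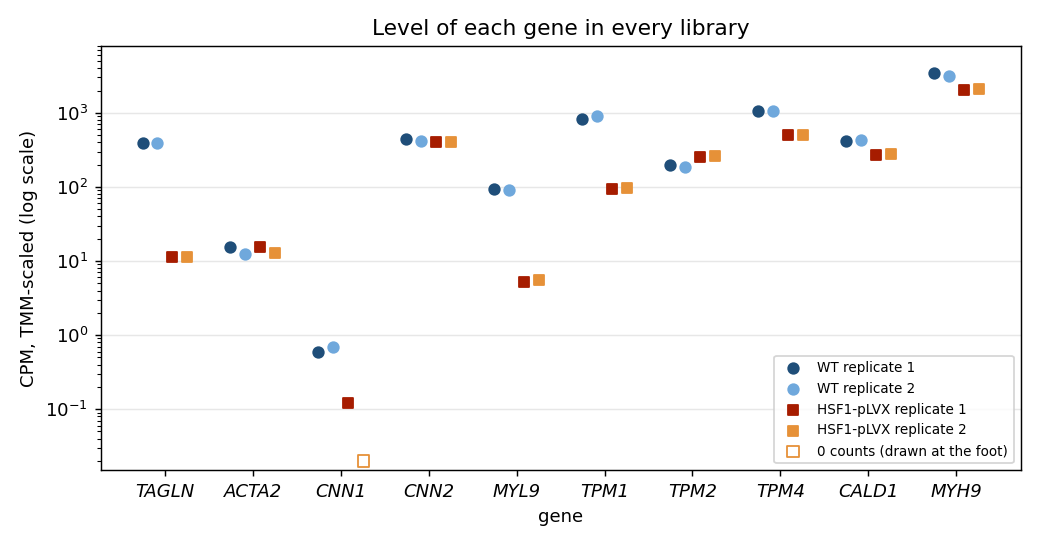
CPM (TMM-scaled per-million counts, log scale) of each of the 10 genes in every library, with circles for the 2 WT and squares for the 2 HSF1-pLVX libraries. *TAGLN*, *MYL9* and *TPM1* show the widest gap among genes detected in every library, from 388.1 and 387.9 to 11.5 and 11.4 CPM for *TAGLN*, and the open square marks the library with 0 counts of *CNN1*.

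*TAGLN* encodes transgelin (SM22), an actin-bundling protein of smooth muscle, and lies on chromosome 11 of hg38 from 117199321 to 117204782, plus strand. Its levels were 388.1 and 387.9 CPM in the WT libraries and 11.5 and 11.4 CPM in the HSF1-pLVX libraries. The replicates of each group lay almost on each other and the groups were far apart. *TAGLN* fell by 5.08 on the log2 scale (standard error 0.107, 33.9-fold lower, adjusted p = 2.14e-13 in the quasi-likelihood test of edgeR). Its exons share 446 bases, 11.4% of their length, with *PCSK7* on the opposite strand, a gene with 1696 to 2103 counts per library. The strand setting of the counting was not given in the sources used here, and without it reads from both genes in those bases cannot be told apart.

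The transgelin relative *TAGLN2*, found in most cell types, fell less. It stood at 764.8 and 749.1 CPM in WT and at 316.8 and 344.6 CPM in HSF1-pLVX cells, a log2 fold change of -1.19 (standard error 0.097, adjusted p = 7.69e-08, quasi-likelihood test of edgeR). *TAGLN3*, the neuronal form, was barely detected, with 13 to 21 counts per library and a log2 fold change of 0.24 (adjusted p = 0.579, edgeR).

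The 3 calponins bind actin and restrain its sliding over myosin, *CNN1* in smooth muscle and *CNN2* and *CNN3* more widely. *CNN1* (chromosome 19, 11538717 to 11550323, plus strand) had 11 and 13 counts in the WT libraries and 3 and 0 counts in the HSF1-pLVX libraries. The groups did not overlap, yet all values were close to the detection limit. The ratio of the summed counts, 24 against 3, scaled to library size, was 9.63 with a 95% interval of 2.93 to 49.97 (exact Clopper-Pearson, counting error only). In edgeR's quasi-likelihood test its adjusted p was 0.0012, and the fitted log2 fold change depends on the small count added to the zero. That fitted value was -3.16 with all libraries, -2.36 without HSF1-pLVX replicate 2 and -6.63 without HSF1-pLVX replicate 1, where no counts were left in the group, and without WT replicate 2 the gene did not pass the filter.

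*CNN2* (chromosome 19, 1026581 to 1039068, plus strand), the calponin with the highest level here, stood at 443.3 and 422.5 CPM in WT and at 405.7 and 401.4 CPM in HSF1-pLVX cells. Every HSF1-pLVX value was below every WT value, by less than the test could call. The log2 fold change was -0.10 with a 95% interval of -0.30 to 0.10 (adjusted p = 0.346, quasi-likelihood test of edgeR). *CNN3*, at 228.3 and 246.4 CPM in WT and 109.2 and 114.5 CPM in HSF1-pLVX cells, fell by 1.09 on the log2 scale (standard error 0.0898, adjusted p = 9.30e-08, edgeR).

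*MYL9* encodes the regulatory light chain of smooth muscle and non-muscle myosin II, whose phosphorylation switches the motor on. The gene lies on chromosome 20 from 36541484 to 36551447, plus strand. It measured 93.3 and 89.6 CPM in the WT libraries and 5.18 and 5.49 CPM in the HSF1-pLVX libraries, with no overlap. The log2 fold change was -4.10 (standard error 0.105, 17.2-fold lower, adjusted p = 1.82e-12, quasi-likelihood test of edgeR). The other regulatory light chain genes, *MYL12A* and *MYL12B*, are very similar to each other in sequence, so their reads may have been split between them. The log2 fold change of *MYL12A* was -0.84 (standard error 0.0923) and that of *MYL12B* -0.75 (standard error 0.0929), with adjusted p-values of 1.78e-06 and 5.77e-06 in edgeR's test. The essential light chain *MYL6*, which stiffens the lever arm of the motor, went from 975.1 and 966 CPM to 278.3 and 285.3 CPM, a log2 fold change of -1.78 (standard error 0.097, adjusted p = 1.20e-09, edgeR), while its relative *MYL6B*, at 17.8 to 20.9 CPM in WT and 29.8 to 30.3 CPM in HSF1-pLVX cells, rose by 0.64 on the log2 scale (adjusted p = 9.89e-05, edgeR).

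*MYH9*, the heavy chain of non-muscle myosin IIA, lies on chromosome 22 from 36281281 to 36388018, minus strand, and had the highest CPM of the 10 genes in both groups. Its values were 3465 and 3113 CPM in WT and 2006 and 2067 CPM in HSF1-pLVX cells. The WT replicates differed more from each other than the HSF1-pLVX replicates did, and both were above them. The log2 fold change was -0.69 (standard error 0.112, adjusted p = 7.83e-05, quasi-likelihood test of edgeR). *MYH10*, the IIB heavy chain, was higher, from 77.2 and 68.5 CPM to 93.8 and 89.9 CPM, a log2 fold change of 0.33 (standard error 0.0881, adjusted p = 0.0041, edgeR). *MYH14*, the IIC heavy chain of epithelia, fell from 504.4 and 447.8 CPM to 83.01 and 54.8 CPM. This was a log2 fold change of -2.78 (standard error 0.154, adjusted p = 1.42e-09, edgeR).

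The tropomyosins, coiled-coil proteins that lie along the filament, moved in opposite directions. *TPM1* (chromosome 15, 63042632 to 63071915, plus strand), whose long products mark stable stress fibres, measured 816.8 and 908.6 CPM in WT and 94.8 and 95.99 CPM in HSF1-pLVX cells. It was 9.04-fold lower, a log2 fold change of -3.18 (standard error 0.105, adjusted p = 1.46e-11, quasi-likelihood test of edgeR). Its exons share 2143 bases, 17.2% of their length, with the antisense gene *TPM1-AS*, which had 73 and 75 counts in WT and 13 and 11 in HSF1-pLVX libraries. Whether the counting separated reads in those bases by strand was not given in the sources used here.

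*TPM2* (chromosome 9, 35681992 to 35691020, minus strand) was the gene that rose, from 195.9 and 184.3 CPM in WT to 253.3 and 264.5 CPM in HSF1-pLVX cells. The groups did not overlap, as was so in this direction for 42.1% of all tested genes. The change was small, 1.36-fold or 0.45 on the log2 scale (standard error 0.0891, adjusted p = 5.08e-04, quasi-likelihood test of edgeR). *TPM4* (chromosome 19, 16067021 to 16103005, plus strand), with the highest CPM of the family in WT cells, measured 1043 and 1056 CPM in WT and 500.6 and 501.3 CPM in HSF1-pLVX cells. It was 2.09-fold lower (log2 fold change -1.07, standard error 0.0968, adjusted p = 2.49e-07, edgeR). Of the words of 76 bases in its main transcript 9.17% also occur in other places, the pseudogenes *TPM4P2* and *TPM4P3*, and reads there may have been shared or dropped. *TPM3* fell by 0.60 on the log2 scale (standard error 0.0913, adjusted p = 4.60e-05, edgeR), from 472.7 and 450.6 CPM to 305.4 and 304.3 CPM. The counts are per gene and do not separate the long and short products that each tropomyosin gene makes.

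*CALD1*, caldesmon, which binds actin, tropomyosin and myosin, lies on chromosome 7 from 134744252 to 134970728, plus strand. It measured 413.6 and 431.7 CPM in WT and 273.1 and 274.1 CPM in HSF1-pLVX cells. The groups did not overlap, and the log2 fold change was -0.63 (standard error 0.0904, adjusted p = 2.71e-05, quasi-likelihood test of edgeR).

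*ACTA2*, alpha smooth muscle actin, is the marker by which myoepithelial cells and myofibroblasts are usually recognised. It lies on chromosome 10 from 88935074 to 88991339, minus strand. Its levels were 15.6 and 12.3 CPM in WT and 15.7 and 12.9 CPM in HSF1-pLVX cells, with 228 to 394 counts per library. The groups overlapped. The log2 fold change was 0.05 with a 95% interval of -0.26 to 0.35 (adjusted p = 0.789, quasi-likelihood test of edgeR), an interval that leaves out a 2-fold change in either direction. Its exons share 516 bases with *ACTA2-AS1* (0 to 8 counts per library) and 380 bases with *FAS* (934 to 1396 counts), both on the opposite strand. These are 17.3% and 12.8% of the exon length of *ACTA2*. Without the strand setting of the counting, reads from *ACTA2* and these genes in the shared bases cannot be told apart.

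Of the 2 cytoplasmic actins, which form the bulk of actin in such cells, *ACTB* was called and *ACTG1* was not. *ACTB* went from 8869 and 8794 CPM in WT to 4514 and 4488 CPM in HSF1-pLVX cells, a log2 fold change of -0.97 (standard error 0.118, adjusted p = 4.69e-06, quasi-likelihood test of edgeR). *ACTG1* measured 3750 and 3546 CPM in WT and 3228 and 3507 CPM in HSF1-pLVX cells, with a log2 fold change of -0.12 and a 95% interval of -0.36 to 0.13 (adjusted p = 0.386, edgeR). The muscle actins *ACTG2*, *ACTA1* and *ACTC1* had 0 to 6 counts per library and were not tested. Of 16 close relatives of the 10 genes 12 were tested. At an adjusted p of 0.05, 8 of these relatives were lower and 2 higher (33.2% and 32.7% of all tested genes, 46.4% and 33.9% of those with a mean of 100 CPM or more). The number higher was 1 without WT replicate 2 and 1 without HSF1-pLVX replicate 2.

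**Figure D2:**
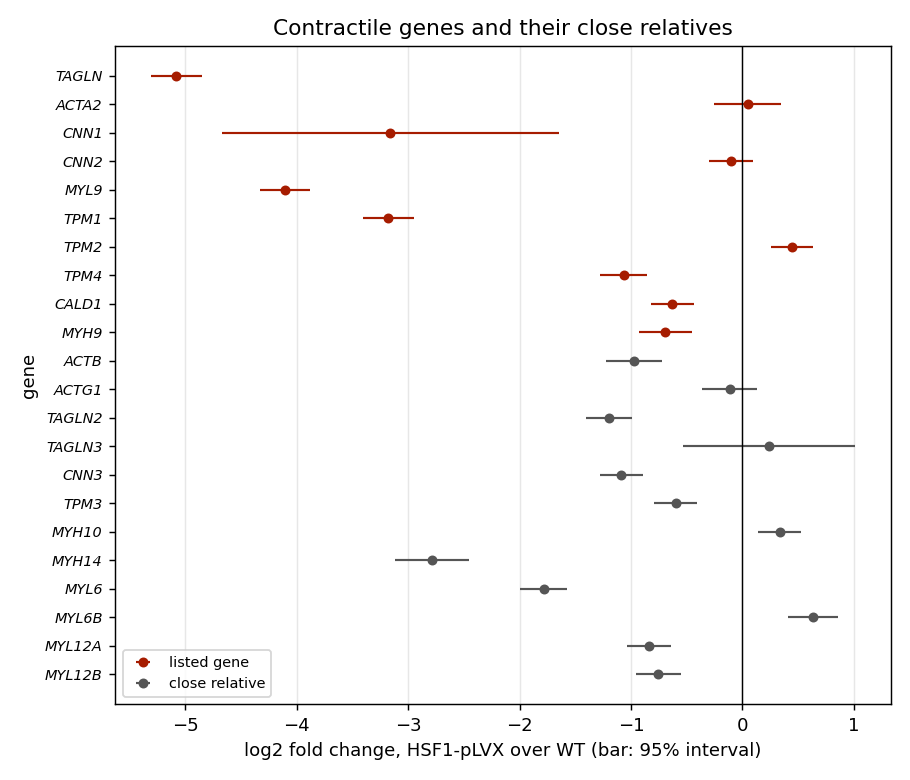
Log2 fold change of HSF1-pLVX over WT with its 95% interval from edgeR's fit, for the 10 genes (red) and the 12 tested close relatives (grey). *TAGLN*, *MYL9* and *TPM1* lie at -5.08, -4.10 and -3.18, the intervals of *ACTA2*, *CNN2*, *ACTG1* and *TAGLN3* include 0, and *TPM2*, *MYH10* and *MYL6B* lie above 0. The wide bar of *CNN1* rests on 3 and 0 counts in the HSF1-pLVX libraries.

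To compare levels between genes, CPM were divided by the length of the merged exons in kilobases (RPKM). The merged length counts every annotated exon of a gene, so a gene with many rarely used exons is understated. For *TPM1* it is 12492 bases, where the main transcript has 1217. For *TPM4* the lengths are 7414 and 2474 bases, and for *MYH9* 8959 and 7451. *TPM1* is thus understated more than these genes, and the order below holds for merged lengths only. An order by transcript length was not computed. In WT cells the order was *MYH9* (367.1 ± 27.8 RPKM, SD, n = 2), *TPM4* (141.5 ± 1.23), *CNN2* (118.8 ± 4.04), *TAGLN* (99.1 ± 0.0262), *TPM1* (69.1 ± 5.19), *TPM2* (46.97 ± 2.03), *CALD1* (42.9 ± 1.30), *MYL9* (32.4 ± 0.933), *ACTA2* (4.68 ± 0.78) and *CNN1* (0.223 ± 0.0278). No pair of neighbours in that order had overlapping library values. In HSF1-pLVX cells *MYH9* (227.3 ± 4.82 RPKM) remained first, followed by *CNN2* (110.7 ± 0.826), *TPM4* (67.6 ± 0.0698), *TPM2* (63.97 ± 1.97), *CALD1* (27.8 ± 0.0722), *TPM1* (7.64 ± 0.0674), *ACTA2* (4.81 ± 0.655), *TAGLN* (2.92 ± 0.00817), *MYL9* (1.89 ± 0.0773) and *CNN1* (0.0207 ± 0.0293). Here too neighbours did not overlap. *TAGLN* thus went from the 4th to the 8th place, below *ACTA2*, while its level in WT cells had been far above that of *ACTA2*.

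The makeup of each protein family followed from these levels and is described without a test, since 2 libraries against 2 cannot give an exact permutation p below 0.33. Length here is again that of the merged exons, 12492 bases for *TPM1*, 4047 for *TPM2* and 7414 for *TPM4*. Their main transcripts have 1217, 1190 and 2474 bases. The share of *TPM1* is thus understated beside those of *TPM2* and *TPM4*, and shares by transcript length were not computed. Per merged length, *TPM1* made up 21.04 and 23.1% of the tropomyosin total in the WT libraries and 4.36 and 4.34% in the HSF1-pLVX libraries. The share of *TPM2* rose from 15.6 and 14.5% to 35.9 and 36.9%, that of *TPM3* went from 18.1 and 17.1% to 20.9 and 20.5%, and that of *TPM4* from 45.3 and 45.3% to 38.8 and 38.2%. Without scaling by length the mean share of *TPM4* went the other way, from 40.9 to 43.2%, while *TPM1* still shrank and *TPM2* still grew. In total the 4 tropomyosin genes fell from 310.8 and 314.4 to 174.1 and 176.9 RPKM. Per merged length *TPM2* was the lowest of the family in both WT libraries and came next to *TPM4* in both HSF1-pLVX libraries, where without scaling by length it came after *TPM3*.

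Among transgelins and calponins *TAGLN* made up 16.3 and 16.4% in WT and 1.04 and 0.998% in HSF1-pLVX libraries. The share of *CNN2* rose from 19.96 and 19.2% to 39.7 and 37.7%, while the summed level of the family fell from 609.2 and 603.6 to 280.6 and 292.4 RPKM. Per length *TAGLN2* had the largest share in every library, with 50.5 and 49.9% in WT and 45.4 and 47.4% in HSF1-pLVX cells, and *CNN3* held 13.2 to 14.4% in every library. Without scaling by length *CNN2* had the largest share in HSF1-pLVX libraries, with 48.1 and 45.99% against 37.5 and 39.5% for *TAGLN2*. *MYL9* gave 6.61 and 6.20% of regulatory light chain transcripts in WT and 0.669 and 0.686% in HSF1-pLVX libraries, a family added after the values were seen. Among the heavy chains *MYH9* rose from 86.7 and 86.8% to 92.3 and 93.7%, *MYH10* from 1.92 and 1.90% to 4.29 and 4.05%, and *MYH14* fell from 11.4 and 11.3% to 3.45 and 2.25%.

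*ACTA2* was a minor actin in both groups, with 0.131 and 0.106% of actin transcripts in WT and 0.213 and 0.17% in HSF1-pLVX libraries. The share of *ACTB* went from 68.3 and 69.3% to 55.98 and 53.8%, and that of *ACTG1* from 31.6 and 30.6% to 43.8 and 46.01%. The summed actins fell from 3989 and 3897 to 2476 and 2561 RPKM.

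**Figure D3:**
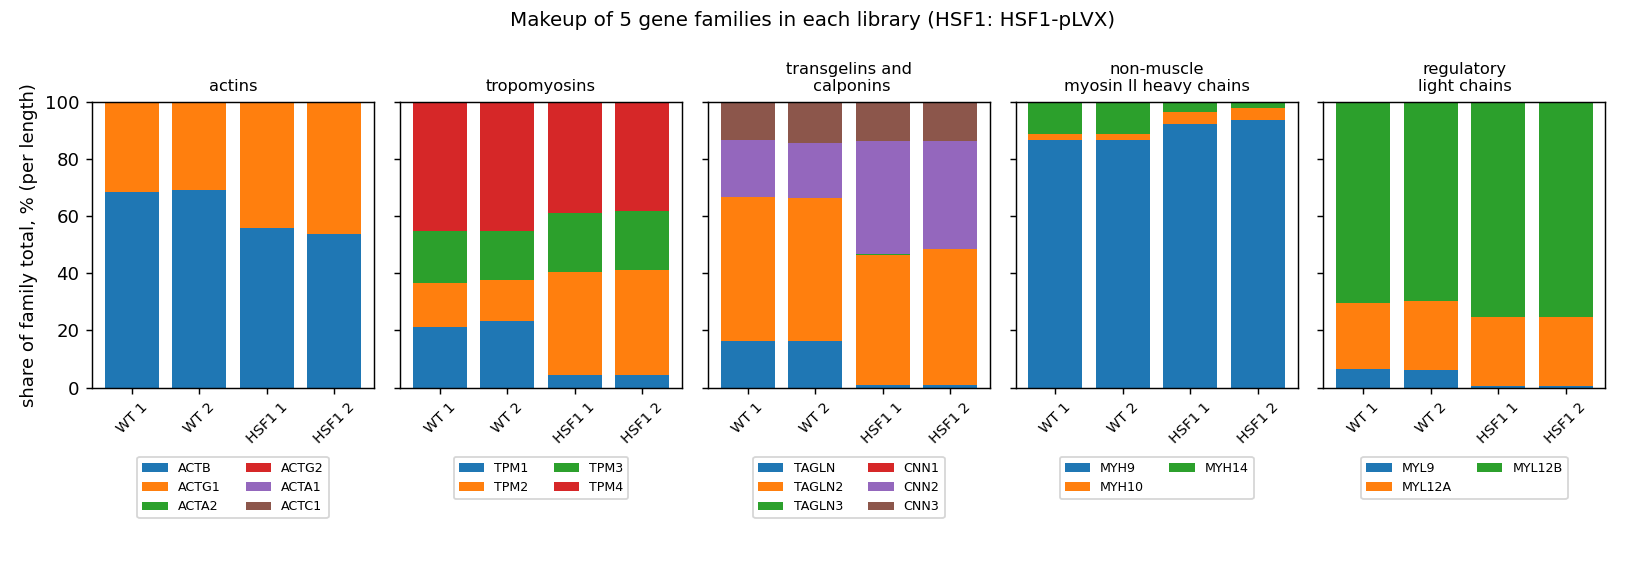
Stacked bars give the share of each gene in the total of its family, scaled by merged exon length, in percent. Each library has a bar, with WT on the left and HSF1-pLVX on the right of each panel. *TPM1* shrinks from 21.04 and 23.1% to 4.36 and 4.34% while *TPM2* grows, *TAGLN* shrinks from 16.3 and 16.4% to 1.04 and 0.998%, and *CNN2* grows to 39.7 and 37.7%.

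The study called a gene changed when its ratio within replicate 1 and within replicate 2 was over 2.0, or under 0.50 in each. On the deposited normalized values, which are log2-like, this rule was passed downwards by 4 of the 10 genes and upwards by 0, where 6.42% of the 22321 rows passed downwards and 5.0% upwards. The ratios within replicates 1 and 2 were 0.0307 and 0.0314 for *TAGLN*, 0.0618 and 0.0694 for *MYL9*, 0.113 and 0.106 for *TPM1*, and 0.465 and 0.472 for *TPM4*. *MYH9*, with 0.561 and 0.659, and *CALD1*, with 0.64 and 0.631, were below 1 but did not reach 0.50. *CNN1* passed in replicate 2 alone, with 0.547 and 0.3. When the ratios were taken on scaled counts plus 1 instead, 5 genes passed downwards.

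Promoter sequence was examined because several of these genes are textbook targets of SRF, which binds the CArG box. RefSeq promoter windows (GRCh38.p14) were matched for 8 of the 10 genes, and 15 windows were read, each over the 250 bases before a transcription start. The windows for *TAGLN* and *MYL9* were not analysed here. The CArG box was searched only in its strict form, CCWWWWWWGG with W for A or T. A box with any other base in it was not counted. The strict box was found in 2 of the 15 windows, at *CNN2* and at the first window of *TPM4*, against 1.16% of all 35116 windows. The windows of these 2 genes are shown with that of *TPM1*, which fell most among the matched genes detected in every library. They are written 5′ to 3′ on the plus strand of GRCh38.p14 with the CArG box, searched on both strands, in capitals.
CNN2, chr19:1026358-1026607: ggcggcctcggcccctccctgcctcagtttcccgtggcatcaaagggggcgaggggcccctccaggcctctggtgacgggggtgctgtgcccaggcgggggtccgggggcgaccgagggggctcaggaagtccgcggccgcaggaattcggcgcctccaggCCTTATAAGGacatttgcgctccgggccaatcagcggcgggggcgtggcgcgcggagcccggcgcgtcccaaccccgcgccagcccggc
TPM4, chr19:16067288-16067537: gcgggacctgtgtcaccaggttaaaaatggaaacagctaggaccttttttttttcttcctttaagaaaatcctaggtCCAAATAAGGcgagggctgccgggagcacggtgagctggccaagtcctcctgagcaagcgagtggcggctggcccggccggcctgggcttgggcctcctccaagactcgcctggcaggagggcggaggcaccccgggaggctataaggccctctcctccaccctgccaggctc
TPM1, chr15:63048239-63048488: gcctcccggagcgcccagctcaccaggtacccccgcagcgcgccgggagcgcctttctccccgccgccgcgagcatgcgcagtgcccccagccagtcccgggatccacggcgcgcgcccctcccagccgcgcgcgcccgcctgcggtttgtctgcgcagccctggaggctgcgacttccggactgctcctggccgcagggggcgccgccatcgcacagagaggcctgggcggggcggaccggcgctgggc
The box lay 89 bases before the start in *CNN2* and 173 bases before it in *TPM4*. Of the genes with a strict box in a window, *CNN2* was not called and *TPM4* fell 2.09-fold. Of the matched genes with no strict box in a window, *TPM1* fell 9.04-fold. *CNN1*, *CALD1* and *MYH9* were also called lower, *TPM2* was called higher and *ACTA2* was not called. Whether a box goes with the change was not tested. The *TPM1* window lies inside the gene, which spans 63042632 to 63071915 on the plus strand. The printed window of *TPM4* also lies inside its gene (16067021 to 16103005), as do the other windows of *TPM4* and those of *TPM2*. The bases before the outermost annotated start of *TPM1*, *TPM2* and *TPM4* were therefore not read. The heat shock element core bound by HSF1 was searched as TTCNNGAA and GAANNTTC, both of which read the same on both strands. TTCNNGAA was found in 2 windows, of *ACTA2* and *CALD1* (6.62% of all windows), and GAANNTTC in 0 (5.78% of all windows). The TEAD motif CATTCC, on either strand, was found in 4 windows, of *ACTA2*, *CALD1* and *MYH9* (11.9% of all windows). These matches are descriptions of the letters in short windows and say nothing of binding.

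Genes for SRF and its cofactors moved little and in both directions. Of 8 genes for SRF and its cofactors 7 were tested, with a median log2 fold change of 0.04. Of these 1 was lower and 2 were higher (33.2% and 32.7% of all tested genes). *SRF* itself measured 50.9 CPM on average in WT and 57.4 in HSF1-pLVX cells (log2 fold change 0.17, 95% interval -0.01 to 0.35, adjusted p = 0.0848, quasi-likelihood test of edgeR). *MRTFA*, a cofactor released from actin monomers, fell by 0.46 on the log2 scale (standard error 0.0812, adjusted p = 1.77e-04, edgeR), and *MRTFB* had a log2 fold change of -0.15 (adjusted p = 0.15, edgeR). *ELK4* and *ELK1*, cofactors of the competing ternary complex type, were higher by 0.55 and 0.33 (adjusted p = 4.60e-04 and 0.0057, edgeR). *MYOCD*, the cofactor particular to smooth and heart muscle, had 0 counts in all libraries. These small counts moved with single libraries: without WT replicate 2 there were 2 lower and 1 higher, and without HSF1-pLVX replicate 2 there was 1 higher.

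Of 20 genes for RhoA, kinases and phosphatase subunits acting on the light chain, 19 were tested, of which 13 were lower and 3 higher, with a median log2 fold change of -0.45. The background for these calls, and for those of the lists that follow, is 33.2% lower and 32.7% higher over all tested genes, and 46.4% lower and 33.9% higher among genes with a mean of 100 CPM or more. *RHOA*, the GTPase that turns contraction on, had a log2 fold change of -0.72 (standard error 0.0964), its relative *RHOC* one of -1.25 (standard error 0.0915) and the kinase *CDC42BPB* one of -0.52 (standard error 0.0929). *MYLK*, the calcium-dependent kinase of *MYL9*, went from 37.02 ± 1.43 CPM to 6.88 ± 0.471 (SD, n = 2 each). It fell by 2.42 on the log2 scale (standard error 0.112, adjusted p = 2.63e-10, quasi-likelihood test of edgeR). *CIT*, citron kinase of the dividing cell's cleavage furrow, rose by 2.53 (standard error 0.149, adjusted p = 2.66e-09, edgeR), from 5.57 to 32.1 CPM. The number higher was 1 without HSF1-pLVX replicate 2.

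Among 27 cross-linking, LIM and adhesion proteins of stress fibres, 24 were tested, of which 18 were lower and 5 higher (33.2% and 32.7% of all tested genes), with a median log2 fold change of -0.47. The filamin *FLNA* and the alpha-actinin *ACTN1*, both cross-linkers of actin filaments, had log2 fold changes of -0.55 and -0.67 (standard errors 0.112 and 0.101). *CSRP1*, a LIM protein of smooth muscle, fell by 2.14 (standard error 0.0897), and *FHL1*, a LIM protein of muscle, rose by 2.24 (standard error 0.0944, adjusted p = 1.07e-10, quasi-likelihood test of edgeR). The number higher was 3 without HSF1-pLVX replicate 2. *ACTN4* had 1 to 6 counts per library, and the table holds a copy of the gene with the same exon lengths on a contig outside the main chromosomes, so its level was not read here. None of the 10 genes has such a copy.

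All 28 genes of actin monomer binding, capping and nucleation were tested, of which 20 were lower and 3 higher (33.2% and 32.7% of all tested genes), with a median log2 fold change of -0.40. The 3 most abundant were the monomer-binding thymosin *TMSB10*, with a log2 fold change of -0.35 and a standard error of 0.103, the severing protein *CFL1*, with -1.10 (standard error 0.1), and the recycling factor *CAP1*, with -1.91 (standard error 0.102, adjusted p = 1.04e-09, quasi-likelihood test of edgeR). The number lower was 13 without HSF1-pLVX replicate 2 and the number higher was 1 without HSF1-pLVX replicate 1.

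**Figure D4:**
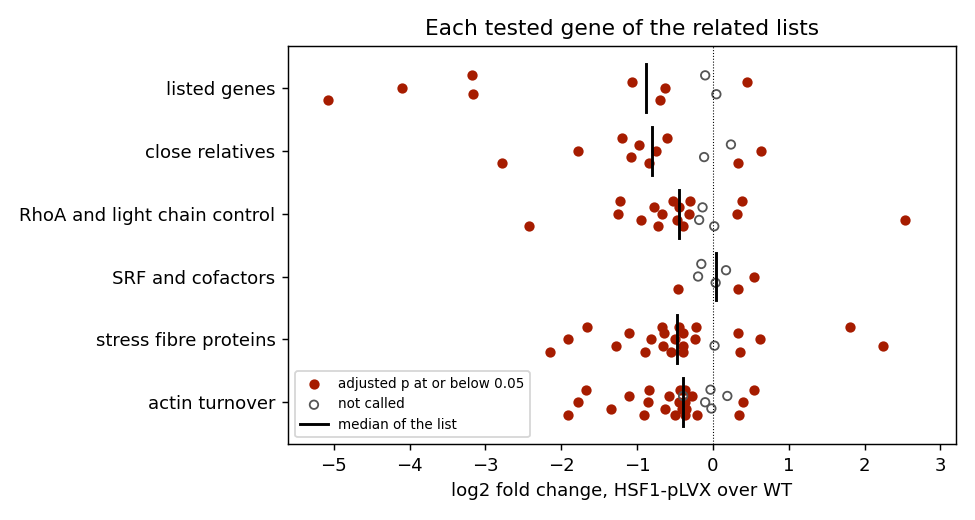
Log2 fold change of HSF1-pLVX over WT for every tested gene of the 10 genes, their close relatives and the 4 related lists, filled where the adjusted p was at or below 0.05, with a bar at each median. The medians run from -0.88 for the 10 genes to 0.04 for SRF and its cofactors.

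The genes whose pattern over the 4 libraries was nearest to that of *TAGLN*, by Euclidean distance of centred log2(CPM + 0.1), were ENSG00000262748.1 (distance 0.366), *NEGR1* (0.393), *NAALADL2* (0.452), *ID4* (0.455) and *ADAMTS6* (0.468). All 5 had at most 19 CPM in any library and at most 0.558 CPM in the HSF1-pLVX libraries, where the added 0.1 weighs on the distance.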

How the data were processed

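The authors aligned paired-end reads of ribosome-depleted total RNA to hg38 with HISAT2 2.0.5, processed them with SAMtools 1.13 and counted them with featureCounts 1.6.5, and deposited raw counts per gene for GENCODE release 26 identifiers. Strand and multi-mapping settings were not given in the sources used here. They also deposited log2-like values normalized with DESeq2 1.32.0, used here only for the ratio rule. Symbols were matched by Ensembl identifier. Differences between groups were fitted in R 4.3.3 by edgeR 4.0.16 (TMM, filterByExpr, quasi-likelihood test, Benjamini-Hochberg over 15830 genes, threshold 0.05). Standard errors and intervals were derived from the test statistic. The study's methods call the replicates biological, and neither they nor the labels say whether these were separate cultures, so p-values measure the spread between these libraries. Replicate pairs differed by more than sampling noise (chi-square per degree of freedom 7.34 in WT and 9.02 in HSF1-pLVX). Unassigned columns of sample values numbered 0.

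The replicate number was not used as a block: the correlation of same-numbered deviations came to 0.000143 when every tested gene entered and to -0.113 for 9672 genes exceeding 8 CPM, and with it edgeR's prior degrees of freedom were infinite. Blocked and crossed fits, other scaling, no filter, the Wald test of DESeq2 1.42.0 and each library left out were alternatives. The genes and lists were chosen with earlier results of these data known. Named were *HSF1*, the 10 genes, the tested relatives and SRF cofactors, and, of the other lists, the 3 highest mean CPM and called genes changed 4-fold or more, and the 5 genes nearest to the lowest gene. A result that this rule names is not reported here.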

Additional observations from a re-analysis of the deposited data

How the results depend on the processing

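No call on the 10 genes or on *HSF1* changed under RLE size factors, library size only, no filter, DESeq2's Wald test, the replicate block or the crossed replicate block, which was added after seeing the data because the deviations of abundant genes were slightly negatively correlated. With the replicate block 7 of the genes were lower and 1 higher, as without it, and the calls over all genes numbered 10309 against 10428. The crossed replicate block gave 7 lower and 1 higher, and 5487 lower and 5429 higher over all genes. Requiring a log2 fold change beyond 1 left 5 lower and 0 higher. A library left out leaves its group with 1 library, assumed to vary like the other group. The log2 fold change then lay between -5.10 and -5.07 for *TAGLN*, -4.15 and -4.05 for *MYL9*, -3.24 and -3.12 for *TPM1*, -1.08 and -1.06 for *TPM4*, -0.64 and -0.61 for *CALD1*, -0.78 and -0.60 for *MYH9*, 0.38 and 0.50 for *TPM2*, -0.15 and -0.05 for *CNN2*, 2.29 and 2.40 for *HSF1*, and -6.63 and -2.36 for *CNN1*, which without WT replicate 2 did not pass the filter. For *ACTA2*, not called in any fit, it lay between -0.13 and 0.24, the sign changing without WT replicate 2 (-0.13) and without HSF1-pLVX replicate 1 (-0.10). The number of SRF cofactor genes called higher was 1 with DESeq2, and 2 were called lower with the crossed block. The cause was not tested. Without length scaling the share of *TPM1* among tropomyosins was 33.6% in WT and 8.22% in HSF1-pLVX cells, and that of *TPM2* 7.42 and 22.3%. With 2 libraries a group, changes such as those of *CNN2* and *ACTA2* lie below what could be called.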
